A study of Mus musculus with 31 samples.

Results

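The Toll-like receptor genes are described here across 4 cell types sorted from the mouse heart. The set holds 10 genes, Tlr1, Tlr2, Tlr3, Tlr4, Tlr7, Tlr8, Tlr9, Tlr11, Tlr12 and Tlr13, taken by symbol from 24421 gene symbols in each count file. All 10 were found and all 10 passed the filter on low counts. Family genes Tlr5 and Tlr6 are outside the set and are given once below.

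The study asked whether myocardial infarction leads dendritic cells to prime T cells against the heart's own antigens. Hearts came from Balb/c mice aged 8 to 12 weeks, either in the steady state (SS) or after a heart attack made by tying off the left anterior descending coronary artery for good (MI). All mice were Balb/c, and the labels name no transgene or other agent in any group. Sorted from digested hearts were cDC1 and cDC2 (the conventional dendritic cell subsets), and 2 monocyte-derived populations, one CD11c-positive (labelled moDC) and one CD11c-negative (labelled macrophages). Each of the 8 groups has 4 RNA-seq libraries, except MI cDC2 with 3, which makes 31 libraries. The time after ligation, the sex of the mice, the sorting antibodies and whether a library came from 1 heart or several were not given in the sources used here. P-values therefore measure the spread between these libraries, which may be technical, and a difference in preparation between SS and MI hearts cannot be told apart from MI.

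Toll-like receptors are membrane proteins of innate immune cells that bind conserved microbial molecules and some molecules released by injured tissue. Tlr2 pairs with Tlr1 or Tlr6 at the cell surface to bind lipopeptides, and Tlr4 binds lipopolysaccharide there with Ly96 and Cd14. Tlr3, Tlr7, Tlr8, Tlr9 and Tlr13 sense nucleic acids inside endosomes, and Tlr11 and Tlr12 sense profilin of protozoan parasites there. The chaperone Unc93b1 carries the endosomal receptors to their compartment. All members but Tlr3 signal through the adaptor Myd88, Tlr3 through Ticam1, and Tlr4 through both.

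Each library held 9148624 to 16531349 reads in genes. Levels are CPM, each gene's count scaled to a common library total, in edgeR with TMM factors. Of markers for the labelled types, Xcr1 averaged 910 CPM in SS and 995 CPM in MI cDC1 and no more than 3.53 CPM in any other group. The 6 cDC2 markers parted the types less, with sums of 4456 to 6121 CPM in SS cDC2. They were 2413 to 2551 CPM in SS macrophages and 2630 to 3168 CPM in SS moDC. The sum of 7 monocyte-macrophage markers, mostly Lyz2, overlapped between SS cDC2 (16312 to 28608 CPM) and SS macrophages (21438 to 28097 CPM). Cd209a averaged 2258 and 2394 CPM in SS and MI cDC2, and Itgax, which encodes CD11c, averaged 7.50 and 40.9 CPM in the CD11c-negative groups against 337 and 471 CPM in the moDC groups. All of these genes are tested in 1 model, edgeR's quasi-likelihood test on the counts with Benjamini-Hochberg adjustment over 13039 genes, and a gene counts as changed at an adjusted p under 0.05. In RNA from sorted pools, fewer cells with a transcript and less of it per cell cannot be told apart.

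Per kilobase of exon, which allows levels of different genes to be set side by side, 1 receptor or a pair made up most of the set in each cell type. Tlr2 held 55.3% ± 3.94 (SD, n = 4) of the 10 genes' summed CPM per kilobase in SS macrophages, 64.2% ± 3.39 in SS moDC and 69.9% ± 6.04 in SS cDC2. In MI it held 50.4% ± 3.32, 59.5% ± 4.46 and 78.0% ± 3.04 (n = 3 in cDC2). In cDC1 the make-up was different, with Tlr11 at 40.9% ± 2.43 and Tlr3 at 24.7% ± 2.26 in SS and at 46.7% ± 2.48 and 25.9% ± 2.91 in MI. Tlr2 held 17.2% ± 1.12 of the SS cDC1 sum and 7.14% ± 1.05 of the MI cDC1 sum. Tlr13 was the second gene of the set in all 6 groups other than cDC1, at 7.64% to 19.1%. The sum itself averaged 275 to 583 CPM per kilobase over the 8 groups, lowest in SS cDC1 and highest in MI macrophages.

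**Figure D1:**
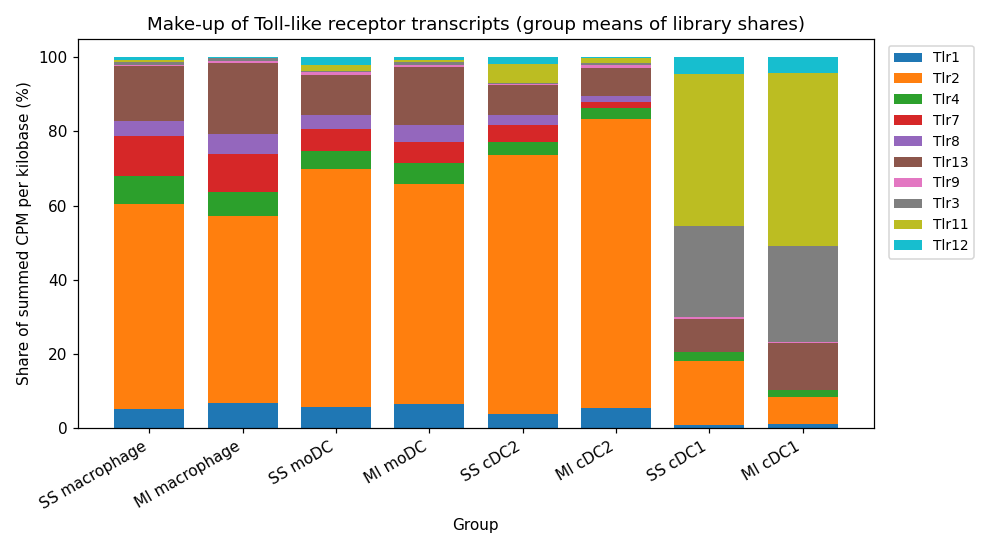
Each bar is a group and each colour 1 gene's share, in percent, of the 10 genes' summed CPM per kilobase, averaged over the group's libraries. Tlr2 fills most of the bars of macrophages, moDC and cDC2 (50.4% to 78.0%), and Tlr11 and Tlr3 fill most of the cDC1 bars.

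Among the surface receptors, Tlr2 overlapped among macrophages, moDC and cDC2 and was low in cDC1. In SS it had 614, 908, 829 and 628 CPM in macrophages, 890, 1012, 881 and 643 in moDC, and 634, 832, 761 and 667 in cDC2. These 3 groups overlapped, and none of their 3 pairwise comparisons passed (fold 1.03 to 1.18, adjusted p 0.309 to 0.862). SS cDC1 had 147, 129, 136 and 156 CPM, below every library of the other types, and 5.09-fold (adjusted p = 1.48e-13) under cDC2. After MI, cDC1 had 71.5, 48.7, 71.1 and 64.6 CPM. The MI and SS cDC1 libraries did not overlap, and Tlr2 fell 2.22-fold (log2 change -1.15, SE 0.16, adjusted p = 5.43e-06). In the other types the MI change of Tlr2 was 0.26, -0.12 and 0.04 on the log2 scale in macrophages, moDC and cDC2, with adjusted p from 0.371 to 0.937.

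Markers of other cells also differed between SS and MI cDC1. The summed CPM of 7 monocyte-macrophage markers ranged from 1547 to 1958 in SS cDC1 and from 748 to 994 in MI cDC1. Most of that sum was Lyz2, which fell from 1473 to 713 CPM (adjusted p = 0.000252). Adgre1, which encodes F4/80, fell from 24.2 to 7.84 CPM (adjusted p = 3.57e-06). Fcgr1, on the same list, did not fall, with 3.30, 1.33, 0.695 and 2.83 CPM in SS and 1.03, 2.56, 2.88 and 6.04 CPM in MI. The 4 monocyte markers went the other way, from a sum of 1346 to 1802 CPM in SS to 2248 to 2752 CPM in MI cDC1. The 7 mural cell markers summed to 90.0 to 322 CPM in SS cDC1 and 0.717 to 2.96 CPM in MI cDC1, with 2 of the 7 at 0 reads in MI cDC1. The 6 T and NK cell markers summed to 11.1 to 29.5 CPM in SS and 0 to 1.30 CPM in MI cDC1, with 2 of the 6 at 0 reads in MI cDC1. Their sum was lower in MI in the other types too. It went from 10.5 to 20.8 CPM in SS to 0 to 1.73 CPM in MI cDC2. In moDC it was 4.15 to 20.9 and 0 to 0.971 CPM, and in macrophages 2.57 to 13.1 and 0.126 to 0.619 CPM. With the summed level of mural and endothelial genes as a covariate, which itself parts SS from MI cDC1, none of the cDC1 changes of Tlr1 (adjusted p = 0.45), Tlr2 (0.258) and Tlr13 (0.732) passed in edgeR, while their folds were 1.97, 2.25 and 1.82, beside 1.74, 2.22 and 1.55 without it. Tlr8, at 63.5 CPM in SS macrophages, had 0 reads in all 8 cDC1 libraries. The part of RNA from macrophages, T and NK cells in the cDC1 changes was not tested.

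Tlr1, the partner of Tlr2 for triacylated lipopeptides, followed the same order of types, and in cDC1 it rose after MI where Tlr2 fell. SS macrophages had 57.0, 92.6, 87.0 and 68.4 CPM and MI macrophages 124, 130, 137 and 127 CPM, with no overlap, a rise of 1.70-fold (log2 change 0.76, SE 0.15, adjusted p = 0.000783). Monocyte and dendritic cell markers also differed between SS and MI macrophages, where Tlr8 and Tlr13 rose too. The summed CPM of 4 monocyte markers ranged from 344 to 508 in SS and from 1839 to 2389 in MI macrophages, most of it Ccr2, which rose 5.06-fold (adjusted p = 2e-13). The sum of 4 shared dendritic cell markers ranged from 6.57 to 19.4 CPM in SS and from 37.6 to 82.3 CPM in MI macrophages, and none of these 8 genes was at 0 in either group. The part of these markers in the macrophage results was not tested. SS cDC1 had 6.25, 6.92, 6.55 and 6.82 CPM and MI cDC1 9.77, 12.4, 13.6 and 10.4 CPM, again with no overlap. The rise in cDC1 was 1.74-fold (log2 change 0.80, SE 0.16, adjusted p = 0.00124), and the adjusted p was 0.0969 when only the cDC1 libraries were fitted. In cDC2 the 3 MI libraries (51.1 to 60.7 CPM) lay above the 4 SS libraries (37.7 to 50.4 CPM), but the difference of 1.33-fold did not pass (adjusted p = 0.0941), and it did not in moDC (adjusted p = 0.68). In SS, macrophages and moDC did not differ in Tlr1 beyond their spread (adjusted p = 0.607). SS cDC2 was 1.77-fold below macrophages (adjusted p = 3.83e-05) and cDC1 6.49-fold below cDC2 (adjusted p = 8.81e-15). Tlr1 and its relative Tlr6 lie on chromosome 5 and have similar sequences, so reads could be split between them to an extent that the counting, not given in the sources used here, would set.

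Tlr4 fell stepwise from macrophages to cDC1 and passed in none of the 4 MI comparisons. SS macrophages had 152, 189, 211 and 191 CPM, SS moDC 97.7, 129, 106 and 131, SS cDC2 72.3, 56.7, 54.9 and 70.4, and SS cDC1 42.4, 36.9, 29.9 and 38.5. No neighbouring groups in that order overlapped. Each step passed: moDC were 1.60-fold below macrophages (adjusted p = 0.00577), cDC2 1.82-fold below moDC (adjusted p = 0.000502) and cDC1 1.72-fold below cDC2 (adjusted p = 0.000664). The first and the second step were lost with SS libraries numbered 1 and 4 alone (adjusted p = 0.158 and 0.0797). After MI the change was 0.17, 0.21, -0.31 and -0.31 on the log2 scale in macrophages, moDC, cDC2 and cDC1 (adjusted p 0.32 to 0.652).

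Tlr5 and Tlr6 were low. Tlr5, the flagellin receptor, had 0 reads in all 8 cDC1 libraries and its highest levels in macrophages, 22.1 to 29.8 CPM in SS and 11.0 to 16.5 CPM in MI, which did not overlap but did not pass (adjusted p = 0.0895). Tlr6 ranged from 3.39 CPM in a cDC1 library to 34.9 CPM in a macrophage library, and none of its MI comparisons passed (adjusted p 0.653 to 0.872).

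**Figure D2:**
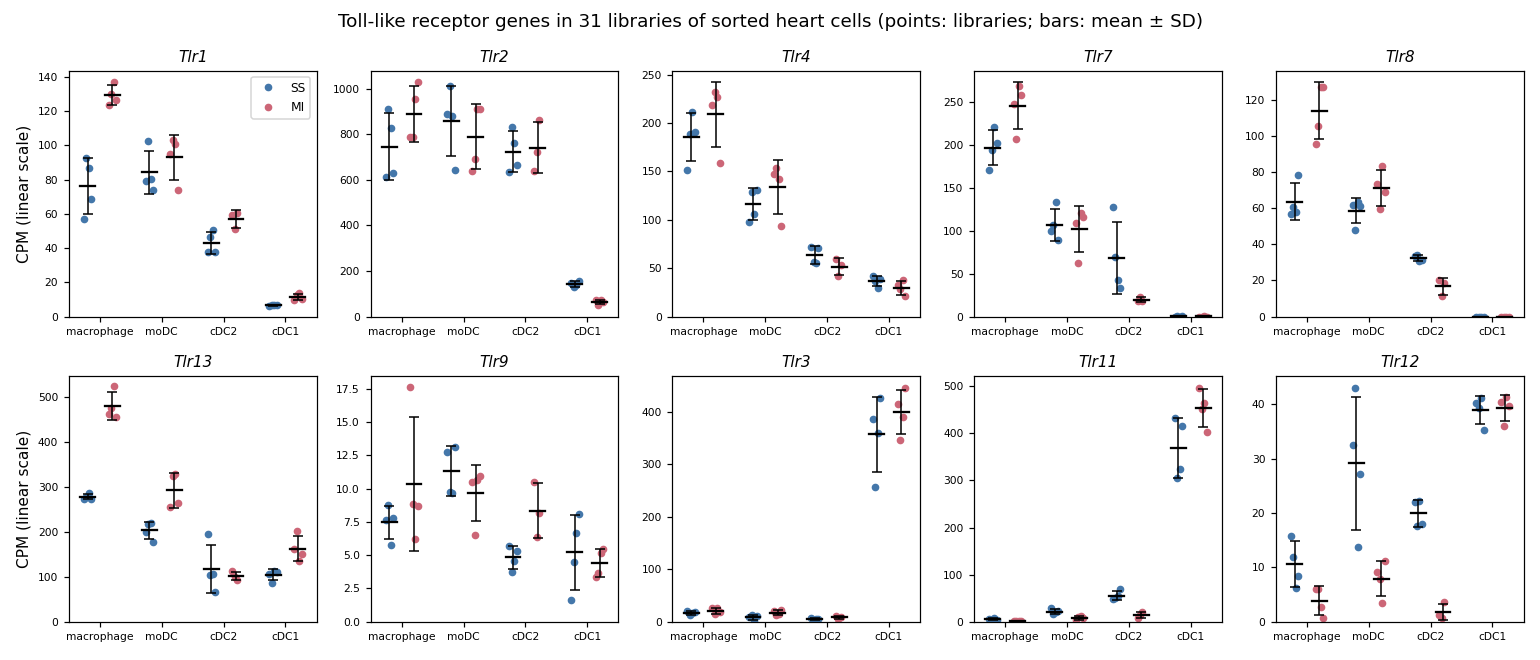
Each panel is 1 gene, on a linear CPM axis of its own starting at 0; points are libraries, SS in blue and MI in red, and bars show the mean ± SD of each group. Tlr1, Tlr8 and Tlr13 stand higher in MI than in SS macrophages, Tlr11 and Tlr12 stand lower in MI than in SS in all types but cDC1, and Tlr3 and Tlr11 reach their highest levels in cDC1.

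Among the sensors of single-stranded RNA, Tlr7 and Tlr8 were highest in macrophages, with 28 and 0 reads in all over the 8 cDC1 libraries. Tlr7 had 171, 193, 220 and 202 CPM in SS macrophages and 99.5, 107, 133 and 88.8 CPM in SS moDC, without overlap, yet the comparison did not pass in the model over all groups (1.84-fold, adjusted p = 0.117). It passed when only these 2 groups were fitted (adjusted p = 0.00184). SS cDC1 had 0, 1.04, 0 and 0.780 CPM (19 reads in all) and MI cDC1 0, 0, 0.836 and 0 CPM (9 reads in all). Tlr8 had 57.0, 60.9, 57.7 and 78.6 CPM in SS macrophages, 61.6, 48.0, 63.5 and 61.4 in SS moDC and 33.6, 34.3, 31.0 and 31.6 in SS cDC2. Macrophages and moDC overlapped (adjusted p = 0.734), and cDC2 lay 1.95-fold below macrophages (adjusted p = 5.54e-05). With 0 Tlr8 reads in every cDC1 library, cDC1 were at least 1006-fold lower than macrophages, 909-fold lower than moDC and 516-fold lower than cDC2 in SS, against a floor of 3 reads over the group. The floor covers counting error only, since PCR reads without molecular identifiers are not independent molecules.

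After MI, Tlr8 moved in opposite directions in macrophages and cDC2. MI macrophages had 95.7, 106, 127 and 127 CPM, all above the SS macrophages, a rise of 1.79-fold (log2 change 0.84, SE 0.17, adjusted p = 0.00166). MI cDC2 had 20.1, 11.3 and 18.8 CPM, all below the SS cDC2, a fall of 1.94-fold (log2 change -0.96, SE 0.19, adjusted p = 0.00103). The difference between these MI effects, tested as an interaction, was -1.80 on the log2 scale (SE 0.25, adjusted p = 4.76e-05; 4.49% of genes were called in that comparison). Between cDC2 and moDC, where Tlr8 changed by 0.28 (adjusted p = 0.401), the difference was -1.24 (SE 0.25, adjusted p = 0.0111; 0.905% of genes called).

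Tlr7 fell in cDC2 as well. SS cDC2 had 127, 69.5, 42.7 and 33.0 CPM, a wide spread, and MI cDC2 had 18.5, 23.3 and 17.6 CPM, below every SS library. The fall was 3.43-fold (log2 change -1.78, SE 0.42, adjusted p = 0.00527). In macrophages the change was 0.32 (SE 0.36, adjusted p = 0.7) and in moDC -0.07 (SE 0.36, adjusted p = 0.959). The interaction of cDC2 with macrophages passed (-2.10, SE 0.55, adjusted p = 0.0227), and that of cDC2 with moDC did not (-1.71, SE 0.55, adjusted p = 0.178).

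Macrophage marker genes differed along with Tlr7 and Tlr8 in cDC2. The 7 monocyte-macrophage markers summed to 16312 to 28608 CPM in SS cDC2 and 3397 to 6167 CPM in MI cDC2, a sum dominated by Lyz2, and none of the 7 was at 0 in either group. Of them, Lyz2, Adgre1, C5ar1 and Cd14 fell in MI cDC2. Adgre1 went from 292 to 105 CPM (2.78-fold, adjusted p = 1.06e-05). C5ar1 did not pass without any 1 MI cDC2 library or without SS cDC2 replicate 2 (adjusted p 0.077 to 0.0907). Mertk averaged 7.21 and 3.01 CPM and did not pass (adjusted p = 0.159). Fcgr1, which encodes CD64, rose from 36.9 to 84.2 CPM (2.28-fold, adjusted p = 0.00814), though it did not pass without MI cDC2 replicate 3 (adjusted p = 0.0551). The part of these markers in the fall of Tlr7 and Tlr8 was not tested.

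**Figure D3:**
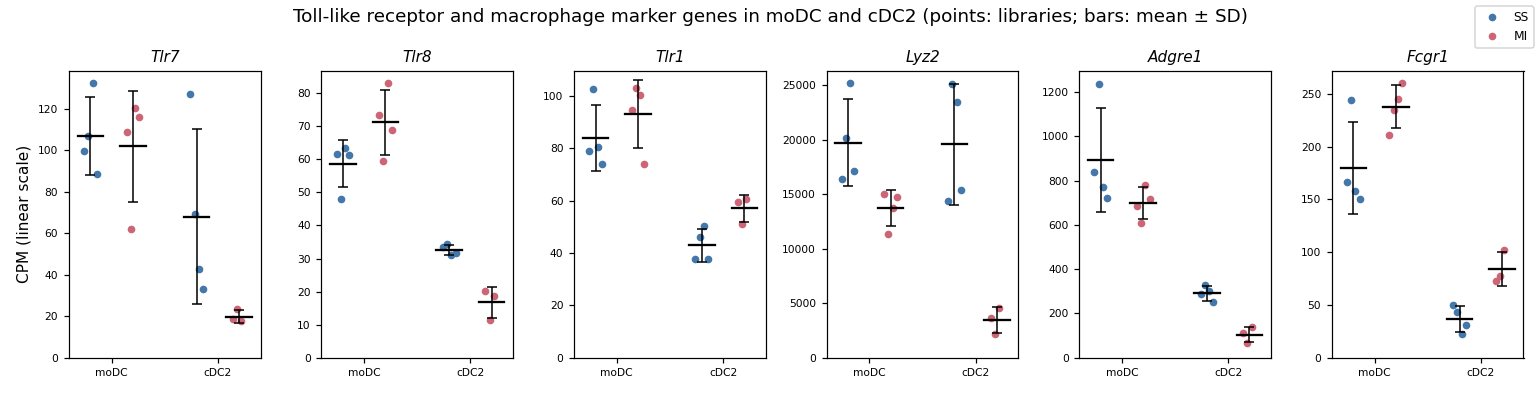
Panels give CPM on linear axes starting at 0 for Tlr7, Tlr8 and Tlr1 and for the macrophage marker genes Lyz2, Adgre1 and Fcgr1 in moDC and cDC2; points are libraries and bars the mean ± SD. In cDC2, Tlr7, Tlr8, Lyz2 and Adgre1 are lower and Fcgr1 is higher in the 3 MI libraries than in all 4 SS libraries.

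Tlr13, which senses bacterial ribosomal RNA, was the most evenly spread of the RNA sensors. SS macrophages had 274, 277, 286 and 274 CPM, SS moDC 199, 216, 219 and 177, SS cDC2 194, 104, 106 and 66.9 and SS cDC1 107, 86.4, 114 and 112. Macrophages and moDC did not overlap but did not differ by the test (adjusted p = 0.099), except when only these 2 groups were fitted (adjusted p = 0.0203), and cDC2 and cDC1 overlapped (adjusted p = 0.537). cDC2 were 1.73-fold below moDC (adjusted p = 0.00247), though not when only these 2 groups were fitted (adjusted p = 0.0866).

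Tlr13 rose after MI in macrophages and cDC1. MI macrophages had 462, 476, 523 and 454 CPM, with no overlap with SS, a rise of 1.72-fold (log2 change 0.79, SE 0.18, adjusted p = 0.00484), and with SS libraries numbered 1 and 4 alone the adjusted p was 0.0695. MI cDC1 had 161, 201, 136 and 150 CPM, also with no overlap, a rise of 1.55-fold (log2 change 0.63, SE 0.18, adjusted p = 0.0228). The cDC1 rise did not pass without MI cDC1 replicate 2 (adjusted p = 0.113) or without SS cDC1 replicate 2 (adjusted p = 0.0857). MI moDC had 254, 324, 329 and 263 CPM, above every SS moDC library, but the 1.44-fold difference did not pass (adjusted p = 0.0884), though it did when only the moDC libraries were fitted (adjusted p = 0.0177). MI cDC2, with 113, 99.8 and 93.1 CPM, overlapped SS cDC2 (adjusted p = 0.561). The MI effect in cDC2 was lower than that in macrophages by 0.99 on the log2 scale (SE 0.27, adjusted p = 0.0237). Its differences from the MI effects in moDC (adjusted p = 0.252) and in cDC1 (adjusted p = 0.0699) did not pass.

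Tlr9, the sensor of unmethylated CpG DNA, was low everywhere, between 1.62 and 17.6 CPM over the 31 libraries. Plasmacytoid dendritic cells are known for high Tlr9. In SS, moDC averaged 11.3 ± 1.87 CPM, macrophages 7.48 ± 1.23, cDC1 5.20 ± 2.82 and cDC2 4.84 ± 0.870 (SD, n = 4 each). Of the 6 comparisons between these groups, moDC passed over cDC2 (2.33-fold, adjusted p = 0.0198) and over cDC1 (2.18-fold, adjusted p = 0.0155). The first did not pass without SS moDC replicate 1 or 4 or SS cDC2 replicate 2 (adjusted p 0.0506 to 0.0656), and the second not without SS cDC1 replicate 1 (adjusted p = 0.0612). No MI comparison of Tlr9 passed (adjusted p 0.207 to 0.826). In cDC2 the MI libraries (10.5, 6.35 and 8.19 CPM) were all above the SS libraries (5.69, 3.73, 4.60 and 5.34 CPM).

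Tlr3, the receptor for double-stranded RNA that uses Ticam1, marked cDC1 in every library. SS cDC1 had 385, 257, 359 and 426 CPM and MI cDC1 414, 347, 391 and 446 CPM, and the 2 states overlapped (adjusted p = 0.845). All other libraries had 2.03 to 25.6 CPM. In SS, cDC1 were 21.4-fold above macrophages, 39.8-fold above moDC and 66.6-fold above cDC2 (adjusted p 1.92e-13 to 8.7e-12). In MI the folds were 18.8, 22.7 and 47.0 (adjusted p 7.97e-12 to 1.47e-11). Among the low types, Tlr3 was 3.11-fold lower in SS cDC2 than in SS macrophages (adjusted p = 0.000366). In moDC it was higher in MI (20.7, 13.7, 14.5 and 21.6 CPM) than in SS (9.74, 12.1, 2.03 and 11.6 CPM) in every library but did not pass (1.97-fold, adjusted p = 0.0806). It did pass in DESeq2 (1.95-fold, adjusted p = 0.03). Exons of Tlr3, on chromosome 8, overlap those of Gm45542 on the opposite strand, and the use of strand in counting is not given in the sources used here, so their reads cannot be told apart.

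Tlr11 and Tlr12, the profilin receptors, were also highest in cDC1, but unlike Tlr3 they had a graded level in the other types that fell after MI. Their upstream windows are printed to show the sequence next to this pair and next to Tlr8, the member with no reads in cDC1. Each is the 250 bases before the RefSeq start on GRCm38.p6, given on the gene's strand. Tlr11 is chr14:50357664-50357913 (plus strand), Tlr12 chr4:128618620-128618869 (minus strand) and Tlr8 chrX:167264330-167264579 (minus strand). Capitals mark matches to any of 4 motifs searched on both strands: the ISRE core (GAAA, any 2 bases, GAAA), the ETS-IRF composite (GGAA, any 2 bases, GAAA), the AP-1 site TGANTCA and the PU.1 core GAGGAA, which can overlap the composite.
Tlr11: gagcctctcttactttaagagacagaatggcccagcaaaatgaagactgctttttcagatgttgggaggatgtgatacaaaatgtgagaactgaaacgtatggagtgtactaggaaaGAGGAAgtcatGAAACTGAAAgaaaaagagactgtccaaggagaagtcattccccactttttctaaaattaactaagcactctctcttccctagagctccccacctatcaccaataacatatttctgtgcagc
Tlr12: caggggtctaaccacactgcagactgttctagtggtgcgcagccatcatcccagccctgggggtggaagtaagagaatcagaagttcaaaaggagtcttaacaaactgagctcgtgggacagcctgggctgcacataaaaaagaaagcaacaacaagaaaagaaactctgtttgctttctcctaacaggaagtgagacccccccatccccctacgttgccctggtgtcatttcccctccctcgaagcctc
Tlr8: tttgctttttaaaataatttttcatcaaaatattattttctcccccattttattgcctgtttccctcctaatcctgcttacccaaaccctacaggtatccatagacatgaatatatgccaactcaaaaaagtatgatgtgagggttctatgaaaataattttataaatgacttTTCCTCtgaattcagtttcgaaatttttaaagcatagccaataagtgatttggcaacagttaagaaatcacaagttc
The Tlr11 window holds an ISRE core, the letters bound by interferon regulatory factors, starting at position -122 from the gene's start, and a PU.1 core at -133. Of 32841 windows of the same length, 2.98% hold the ISRE core and 23.3% the PU.1 core. The Tlr8 window holds a PU.1 core at -77, on the other strand. The Tlr12 window holds none of the 4, which says only that these letters are not in it, and 2.3% of all windows hold the ETS-IRF composite and 6.75% the AP-1 site. A match is a description of the letters and not a measured binding site. Windows were at hand for 8 of the 10 members.

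Tlr11 had 433, 306, 324 and 415 CPM in SS cDC1 and 48.0, 49.5, 55.6 and 68.6 CPM in SS cDC2. SS moDC had 28.3, 15.7, 20.5 and 21.9 CPM and SS macrophages 6.20, 4.02, 8.48 and 4.47 CPM. No neighbours in that order overlapped, and each step passed: cDC1 over cDC2 6.66-fold (adjusted p = 2.82e-08), cDC2 over moDC 2.57-fold (adjusted p = 0.00185) and moDC over macrophages 3.71-fold (adjusted p = 0.000146). cDC2 over moDC was lost with SS libraries numbered 1 and 4 alone (adjusted p = 0.101) or 2 and 3 alone (adjusted p = 0.052), and moDC over macrophages with 2 and 3 alone (adjusted p = 0.0794).

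After MI, Tlr11 fell in all 3 types outside cDC1. MI cDC2 had 7.16, 15.2 and 21.3 CPM, 3.81-fold lower than SS (log2 change -1.93, SE 0.34, adjusted p = 0.000246). MI moDC had 2.82, 11.0, 12.5 and 7.90 CPM, 2.52-fold lower (log2 change -1.33, SE 0.32, adjusted p = 0.0104), and the adjusted p was 0.0588 when only the moDC libraries were fitted and 0.139 with SS libraries numbered 2 and 3 alone. MI macrophages had 1.19, 1.02, 2.48 and 0.948 CPM, 4.22-fold lower (log2 change -2.08, SE 0.42, adjusted p = 0.00166). In each of these types every MI library was below every SS library. MI cDC1 had 497, 452, 465 and 402 CPM, which overlapped SS cDC1 (log2 change 0.30, SE 0.28, adjusted p = 0.635). The MI effect in cDC1 was above that in macrophages by 2.37 (adjusted p = 0.0051), in moDC by 1.63 (adjusted p = 0.0397) and in cDC2 by 2.23 (adjusted p = 0.00207) on the log2 scale. In those 3 comparisons of effects, 4.04%, 1.79% and 4.21% of all genes were called. The lead of cDC1 over cDC2 in Tlr11 was 31.2-fold in MI.

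Tlr12, whose gene has 1 exon, was less restricted in the steady state. SS cDC1 had 40.2, 39.4, 41.3 and 35.4 CPM, SS moDC 32.6, 43.1, 13.7 and 27.2, SS cDC2 22.1, 17.6, 22.2 and 18.0, and SS macrophages 15.8, 12.0, 6.26 and 8.45. cDC1 and moDC overlapped (1.34-fold, adjusted p = 0.486), and cDC1 lay above every cDC2 library without passing (1.96-fold, adjusted p = 0.0803), though it passed when only these 2 groups were fitted (adjusted p = 0.00126). cDC1 passed over macrophages (3.67-fold, adjusted p = 0.000593).

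In MI, cDC1 stood above the other types in Tlr12. MI cDC1 had 40.5, 36.0, 41.4 and 39.7 CPM, overlapping SS (log2 change 0.01, SE 0.41, adjusted p = 1). MI cDC2 had 1.32, 0.694 and 3.56 CPM, 10.7-fold below SS cDC2 (log2 change -3.41, SE 0.54, adjusted p = 6.24e-05) and 19.5-fold below when MI cDC2 replicate 3 was left out. MI moDC had 9.23, 7.92, 3.49 and 11.1 CPM, a fall of 3.68-fold with no overlap (log2 change -1.88, SE 0.43, adjusted p = 0.00708), and the adjusted p was 0.0592 with SS libraries numbered 2 and 3 alone. MI macrophages had 5.97, 6.12, 2.79 and 0.695 CPM, all below SS, a fall of 2.78-fold (log2 change -1.47, SE 0.45, adjusted p = 0.0401). The macrophage call was lost without MI macrophage replicate 3 or 4 or SS macrophage replicate 1 or 2 (adjusted p 0.0901 to 0.134), without the filter on low counts (0.058) and when only the macrophage libraries were fitted (0.135). In MI, cDC1 were 4.96-fold above moDC (adjusted p = 7.69e-05), 10.3-fold above macrophages (adjusted p = 4.51e-07) and 21.0-fold above cDC2 (adjusted p = 2.45e-07), or 38.6-fold above cDC2 without MI cDC2 replicate 3. The MI effect in cDC1 was above that in cDC2 by 3.43 on the log2 scale (SE 0.67, adjusted p = 0.00169). Against macrophages (1.49, SE 0.60, adjusted p = 0.199) and moDC (1.89, SE 0.59, adjusted p = 0.109) the difference in MI effect did not pass.

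Of the 8 cDC1 markers, some differed beside these falls. Batf3, a transcription factor that cDC1 need, fell in all 3 types, from 20.9 to 8.87 CPM in macrophages (adjusted p = 0.000102), from 22.2 to 13.1 CPM in moDC (0.0175) and from 48.0 to 21.0 CPM in cDC2 (0.000222). Naaa rose in macrophages (1.62-fold, adjusted p = 4.62e-05) and moDC (1.48-fold, 0.000944) and fell in cDC2 (1.38-fold, 0.00709), Wdfy4 rose in macrophages (1.70-fold, 0.0182) and Cadm1 rose in cDC2 (1.78-fold, 0.00326). Clec9a, a receptor for exposed actin of dead cells, fell in cDC2 and moDC. In cDC2 it had 10.9, 10.2, 9.74 and 8.71 CPM in SS and 0, 0.397 and 0.771 CPM in MI (24.9-fold, adjusted p = 3.02e-05), a fold of 16.5 without MI cDC2 replicate 1 and 48.2 without replicate 3. In moDC it averaged 3.82 CPM in SS and 0.524 CPM in MI (7.34-fold, adjusted p = 0.00488, and 15.8-fold without MI moDC replicate 3), and in macrophages 0.218 and 0.484 CPM (adjusted p = 0.704). The moDC fall of Clec9a did not pass with the mural and endothelial covariate (adjusted p = 0.0944), with only the moDC libraries fitted (0.0857) or with SS libraries numbered 1 and 4 alone (0.149). Xcr1, the cDC1 chemokine receptor, averaged 3.53 and 3.20 CPM in SS and MI cDC2 (adjusted p = 0.91) and 1.75 and 1.33 CPM in moDC (adjusted p = 0.792). Tlr3 averaged 5.33 and 8.47 CPM in SS and MI cDC2 (adjusted p = 0.279). The summed CPM of all 8 cDC1 markers ranged from 1016 to 1188 in SS cDC2 and from 970 to 1075 in MI cDC2, and none of the 8 was at 0 in either group. Xcr1 and Clec9a made up little of this sum. It was 775 to 875 CPM in SS and 848 to 1054 CPM in MI macrophages too, so it is not a measure of cDC1 RNA. The part of cDC1 RNA in the falls of Tlr11 and Tlr12 was not tested further. In moDC, the mural markers also differed, from a sum of 37.9 to 341 CPM in SS to 14.1 to 17.5 CPM in MI, with 1 of 7 at 0 in MI. With the mural and endothelial covariate, the fall of Tlr12 in moDC did not pass (adjusted p = 0.315) and that of Tlr11 did (adjusted p = 0.0266).

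**Figure D4:**
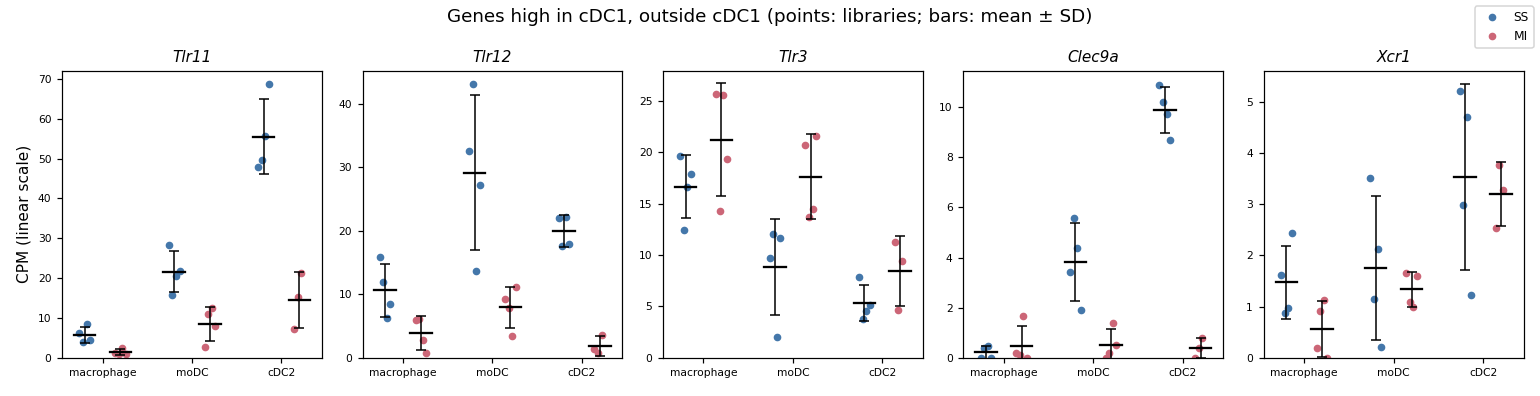
Panels give CPM on linear axes starting at 0 for genes whose level is highest in cDC1, shown in the 3 other types; points are libraries, SS in blue and MI in red, and bars the mean ± SD. Tlr11 and Tlr12 are lower in every MI library than in every SS library of the same type, and Clec9a falls in moDC and cDC2. Tlr3 and Xcr1 did not pass edgeR's test.

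Counted over the set, MI changed 5 of 10 genes in macrophages (3 higher, 2 lower), where 7.39% of all 13039 genes were called (4.01% higher, 3.37% lower). Of those macrophage calls over all genes, 54.3% were higher, and 39.6% were with upper-quartile factors. It changed 2 of 10 in moDC (both lower), where 4.84% of genes were called (1.52% higher, 3.32% lower). It changed 4 of 10 in cDC2 (all lower), where 11.0% were called (4.41% higher, 6.63% lower), and 3 of 10 in cDC1 (2 higher, 1 lower), where 8.88% were called (2.16% higher, 6.73% lower). The median log2 change of the 10 genes in macrophages was 0.33, beside -0.03 over all genes, and in moDC 0.04, beside -0.03. It was -0.26 in cDC2, beside -0.03, and 0.01 in cDC1, beside -0.03. The macrophage count was 3 and the moDC count 2 with SS libraries numbered 1 and 4 alone, and the moDC count was 0 with numbers 2 and 3 alone. An F test of an MI effect that differs among the 4 types called Tlr2 (adjusted p = 0.000174), Tlr8 (0.00022), Tlr11 (0.00183) and Tlr12 (0.00699), 4 of 10, where 6.80% of genes were called. Tlr13 (0.0632), Tlr7 (0.0671) and Tlr1 (0.117) did not pass this test, and Tlr3, Tlr4 and Tlr9 had adjusted p from 0.302 to 0.633. Tlr7 passed it without MI cDC1 replicate 3, SS cDC1 replicate 1 or SS cDC2 replicate 3 or 4 (adjusted p 0.0242 to 0.0433), and Tlr13 without SS cDC2 replicate 4 (0.00347) and in DESeq2 (0.0264). Between moDC and macrophages no member's MI effect differed (0 of 10; 0.291% of genes), with 2 of 10, Tlr1 and Tlr8, at an unadjusted p under 0.05 in edgeR.

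**Figure D5:**
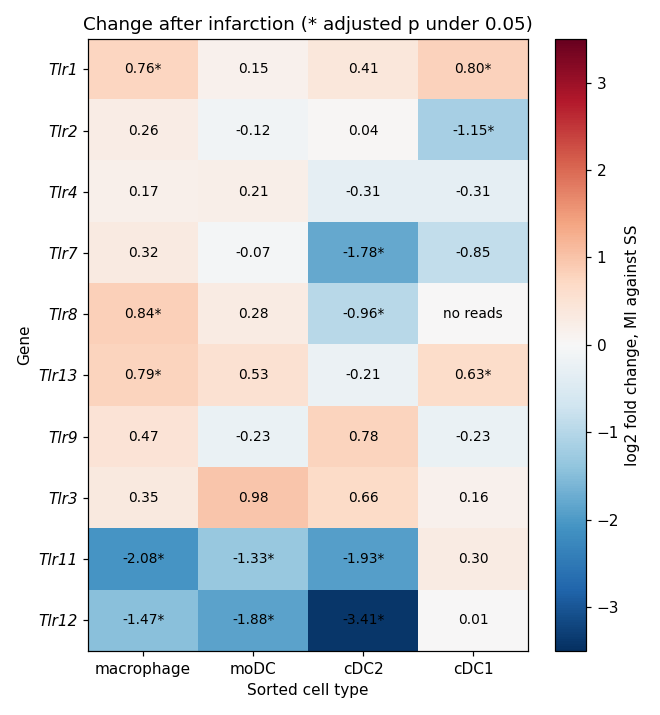
Cells give the log2 fold change of MI against SS for each gene (vertical) in each cell type (horizontal), with red for higher and blue for lower in MI, and an asterisk for an adjusted p under 0.05. Falls of Tlr11 and Tlr12 fill the bottom of all columns but cDC1, and Tlr8 is red in macrophages (0.84) and blue in cDC2 (-0.96).

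Most comparisons between cell types called more members, and more of all genes, than MI did. In SS, cDC1 against macrophages called 3 members higher and 6 lower, where 42.8% of genes were called (20.9% higher, 21.9% lower). Against moDC it called 2 higher and 7 lower, beside 33.3% of genes (14.4% and 18.9%), and against cDC2 2 higher and 5 lower, beside 28.2% (11.7% and 16.4%). SS cDC2 against macrophages called 1 higher and 6 lower, beside 35.2% (19.1% and 16.2%), and against moDC 1 higher and 5 lower, beside 15.4% (7.35% and 8.05%). SS moDC against macrophages called 2 higher and 1 lower, beside 12.9% (8.56% and 4.34%). In MI, cDC1 against macrophages and against moDC each called 3 higher and 7 lower, all 10 members, beside 45.4% (21.0% and 24.5%) and 36.0% (15.0% and 21.0%) of genes. Against cDC2 they called 4 higher and 5 lower, beside 26.8% (10.6% and 16.2%). MI cDC2 against macrophages called 1 higher and 6 lower, beside 26.4% (13.8% and 12.6%), and against moDC 6 lower, beside 10.1% (5.66% lower). MI moDC against macrophages called 1 higher and 5 lower, beside 10.8% (6.65% and 4.17%). The fourth member higher in MI cDC1 than in MI cDC2 was Tlr13 (1.59-fold, adjusted p = 0.00995), which did not pass without MI cDC2 replicate 3 (adjusted p = 0.0535). Same-numbered SS libraries of macrophages and moDC deviated together, and with the replicate number as a block Tlr3, which did not pass there (adjusted p = 0.0666), was lower in SS moDC than in SS macrophages (1.88-fold, adjusted p = 0.0368). The comparisons share groups, so they are not independent of each other.

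The RNA of 18 accessory and trafficking genes of the receptors was compared next. MI changed 5 higher and 1 lower in macrophages, 2 and 2 in moDC, 2 higher and 3 lower in cDC2, and 3 and 2 in cDC1. These are 33.3%, 22.2%, 27.8% and 27.8% of the list in macrophages, moDC, cDC2 and cDC1, beside 7.39%, 4.84%, 11.0% and 8.88% of all genes. Unc93b1 averaged 990 to 2003 CPM over the 8 groups and passed in no MI comparison (adjusted p 0.117 to 0.894). Of the lysosomal proteases on the list, Ctsb, cathepsin B, rose 1.47-fold in macrophages (adjusted p = 0.0158) and Ctss, cathepsin S, 1.42-fold in moDC (0.0139) and 1.36-fold in cDC1 (0.0206). Lgmn, asparagine endopeptidase, rose 1.57-fold in cDC2 (0.0111) and 2.32-fold in cDC1 (5.37e-06). Cd36, a scavenger receptor that hands ligands to Tlr2 dimers, fell in all 4 types. Its fall was 3.73-fold in macrophages (adjusted p = 5.84e-06), 3.75-fold in moDC (1.02e-05), 14.3-fold in cDC2 (1.37e-09) and 1.94-fold in cDC1 (0.00921). Slc15a4, a lysosomal transporter needed for endosomal receptor signalling, rose 1.48-fold in cDC2 (0.0142). Pik3ap1, an adaptor known as BCAP, rose 1.71-fold in macrophages (0.0139), and the chaperone Cnpy3 fell 1.32-fold in moDC (0.0319).

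Of 24 adaptors, kinases and transcription factors, 3 rose with MI in macrophages, 1 rose and 1 fell in moDC, 1 rose and 3 fell in cDC2, and 2 rose and 3 fell in cDC1. In the same order of types these are 12.5%, 8.33%, 16.7% and 20.8% of the list, beside 7.39%, 4.84%, 11.0% and 8.88% of all genes. In macrophages, moDC and cDC2 the share lay near that over all genes. Myd88 rose in cDC1 from 173 ± 17.2 to 316 ± 71.2 CPM (SD, n = 4 each; 1.82-fold, adjusted p = 0.000102) and passed in no other type. Irak2, a kinase of the Myd88 complex, fell 1.43-fold in moDC (0.00355), 1.44-fold in cDC2 (0.00281) and 1.37-fold in cDC1 (0.00688), and Rela, a subunit of NF-kB, fell 1.35-fold in cDC1 (0.0268). Ikbke, a kinase upstream of interferon genes, rose in macrophages from 1.96 to 27.8 CPM (14.1-fold, 0.000175). Irf7, an interferon regulatory factor, rose 1.52-fold in macrophages (0.0408) and fell 1.75-fold in cDC2 (0.00689), while Irf5 fell 1.43-fold in cDC2 (0.0012). Chuk, an NF-kB pathway kinase, rose 1.41-fold in macrophages (0.0425) and 1.42-fold in moDC (0.0481).

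Of 15 response genes tested (of 16), 1 rose and 4 fell in cDC1, 1 rose and 3 fell in cDC2, 1 fell in moDC, and 2 rose in macrophages. These are 33.3%, 26.7%, 6.67% and 13.3% of the list in cDC1, cDC2, moDC and macrophages. Over all genes the shares were 8.88%, 11.0%, 4.84% and 7.39%, so the list lay near them in moDC and macrophages. In cDC1, Tnf fell from 45.1 ± 5.54 to 9.05 ± 2.60 CPM (4.97-fold, adjusted p = 2.89e-08) and Nfkbiz, an inducible NF-kB cofactor, 4.89-fold (1.53e-06), while Il1b rose 2.08-fold (0.000435). The feedback inhibitors Nfkbia and Tnfaip3 fell there with them, 2.70-fold (2.37e-08) and 1.62-fold (0.0158). In cDC2, Il6 fell 9.53-fold (0.000172) and Cxcl10 3.29-fold (0.00112), while Ptgs2, cyclooxygenase-2, rose 2.34-fold (0.00663) and Tnfaip3 1.57-fold (0.0322). Il6 fell 3.30-fold in moDC (0.0363). In macrophages, the chemokine Ccl3 rose 2.07-fold (0.00442) and Ptgs2 2.32-fold (0.00724).

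Of 12 negative regulators, 1 fell in macrophages, 1 rose in cDC2 and 3 fell in cDC1. In moDC none passed in edgeR, and 1 of the 12 had an unadjusted p under 0.05. The list's share called was 8.33% in macrophages and in cDC2, near or under the 7.39% and 11.0% over all genes. In cDC1 it was 25.0%, beside 8.88%, and 4.84% of all genes were called in moDC. Il1rl1, the interleukin-33 receptor, fell 1.76-fold in macrophages (adjusted p = 0.0339) and from 2.87 to 0.195 CPM in cDC1 (2.75e-06). Of 7 reported endogenous ligands tested (of 8), 1 rose in macrophages, 1 fell in moDC, 3 fell in cDC2 and 2 fell in cDC1. These are 14.3%, 14.3%, 42.9% and 28.6% of 7 genes, beside 7.39%, 4.84%, 11.0% and 8.88% of all genes. Fibronectin, Fn1, rose in macrophages from 64.6 ± 74.9 to 931 ± 291 CPM (14.4-fold, 0.0013), a fold of 33.9 without SS macrophage replicate 4, 8.76 with SS libraries numbered 1 and 4 alone and 38.7 with 2 and 3 alone. S100a9, a neutrophil protein, averaged 9.71 ± 9.69 CPM in SS cDC2 and had 0 reads in all 3 MI cDC2 libraries. Its partner S100a8 averaged 5.65 ± 6.86 CPM in SS cDC2 and had 1 read over the MI cDC2 libraries (adjusted p = 0.0413). S100a9 averaged 41.3 ± 53.1 CPM in SS moDC against 0.0991 CPM in MI moDC (0.00855). The proteoglycan biglycan, Bgn, fell in cDC1 from 4.31 to 0.231 CPM (0.00158), beside the mural markers given above. Hspd1, a mitochondrial chaperone, fell 1.51-fold in cDC2 (0.0062) and 1.55-fold in cDC1 (0.00184).

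Other pattern receptors, 12 genes, counted 2 higher and 1 lower in macrophages, 1 lower in moDC, 2 higher and 3 lower in cDC2, and 1 higher in cDC1. These are 25.0%, 8.33%, 41.7% and 8.33% of the list, beside 7.39%, 4.84%, 11.0% and 8.88% of all genes. In moDC and cDC1 the share lay near that over all genes. Tmem173, which encodes STING, the sensor of cyclic dinucleotides made on cytosolic DNA, rose 2.04-fold in cDC2 (adjusted p = 1.74e-07) and 2.87-fold in cDC1 (3.12e-11). Clec4e, the lectin Mincle, rose 3.36-fold (0.0285) and Nlrp3, an inflammasome sensor, 1.60-fold (0.0474) in macrophages, where Clec7a, the lectin Dectin-1, fell 1.54-fold (0.0494). Nod1, a sensor of peptidoglycan fragments, fell 3.20-fold in cDC2 (0.00168).

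Of the 52 changes named from these lists, 20 did not pass without some 1 library. In macrophages the adjusted p reached 0.0687 for Pik3ap1 (lost without SS replicate 2 or 3) and 0.0908 for Clec4e (MI 1 or 2, SS 1, 2 or 3). It reached 0.149 for Chuk and 0.13 for Il1rl1 (each lost without MI 1, 2 or 3 or SS 2, 3 or 4), 0.121 for Irf7 (MI 2 or 4 or any SS), 0.166 for Nlrp3 (MI 1, 3 or 4, SS 1, 2 or 3) and 0.18 for Clec7a (any but SS 4). In moDC it reached 0.0602 for Ctss (SS 1 or 4), 0.126 for Il6 (any MI, SS 3 or 4), 0.125 for Chuk (any but MI 4) and 0.153 for Cnpy3 (any but MI 4 and SS 3). In cDC2 it was 0.15 for Lgmn without MI 1 and 0.0743 for Irf7 without MI 2. There it reached 0.0903 for Slc15a4 (MI 1 or 3, SS 3), 0.15 for Tnfaip3 (MI 1 or 2, SS 1, 2 or 3) and 0.108 for S100a9 and 0.159 for S100a8 (any MI, SS 1 or 2). In cDC1 it reached 0.072 for Ctss (MI 2 or 4, SS 1), 0.156 for Rela (MI 3 or 4, SS 2 or 3) and 0.0647 for Tnfaip3 (MI 3 or 4, SS 2 or 4). The falls of Cd36 in macrophages, moDC and cDC2, the falls of Il6 and Cxcl10 in cDC2 and the rises of Tmem173 held without any 1 library. With the mural and endothelial covariate, 12 of the 15 changes named in cDC1 did not pass, and those of Tmem173, Lgmn and Il1rl1 did. With it, 6 of the 8 changes named in moDC did not pass either, and Cd36 and Irak2 did. With SS libraries numbered 1 and 4 alone, 20 of the 52 did not pass, 8 of the 13 in macrophages among them, including both response genes there, Ccl3 (adjusted p = 0.0936) and Ptgs2 (0.0687).

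The genes whose log2 CPM followed each member most closely over the 31 libraries were as follows, as a description of libraries that share cell type, state and preparation. Nearest to Tlr11 were Clec9a (Pearson's r = 0.95), Actb (0.94) and Rab43 (0.94), and nearest to Tlr3 were Ppt1 (0.96), Irf8 (0.95), a transcription factor that cDC1 need, and Glp1r (0.94). Tlr12 was followed less closely, by Slc22a5 (0.89), Lrrc3 (0.86) and Cd36 (0.84). Tlr7 was followed by the scavenger receptor Msr1 (0.98), Hnmt (0.98) and complement C1qa (0.98), and Tlr8 by Myo7a (0.99), the chemokine receptor Cx3cr1 (0.99) and Lamp1 (0.99). Tlr1 was followed by Ctsc (0.98), Trem2 (0.97) and Fcgr1 (0.97), Tlr2 by Pltp (0.98), Clec4a2 (0.98) and Cybb (0.98), and Tlr4 by Il10rb (0.96), Sepp1 (0.96) and Mfsd11 (0.95). Tlr13 was followed by Ifnar2 (0.90), Mef2a (0.88) and Itga6 (0.88), and Tlr9 by Snx24, Prodh and Gab2 (0.80 each). Within the set, Tlr7 and Tlr8 had r = 0.98, Tlr11 and Tlr12 0.72, Tlr3 and Tlr11 0.66, and Tlr2 and Tlr3 -0.91.

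The genes lie on 7 chromosomes of GRCm38. Tlr7 (chrX:167304929-167330558) and Tlr8 (chrX:167242696-167264329) are neighbours on the minus strand of chromosome X, which also holds Tlr13 (chrX:106143204-106160493). Tlr4 (chr4:66827584-66930284) and Tlr12 (chr4:128615443-128618619) share chromosome 4. Tlr1 is at chr5:64924679-64933563, Tlr2 at chr3:83836272-83841767, Tlr3 at chr8:45395665-45411080, Tlr9 at chr9:106222598-106226883 and Tlr11 at chr14:50357914-50363663. Exon unions used for the values per kilobase ran from 3.014 kb for Tlr2 to 5.556 kb for Tlr4.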

How the data were processed

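RNA-seq was made from 31 samples of sorted heart cells. Per the labels' protocols, 4 ng of RNA was amplified with SMART-Seq v4 and read as 75 nt single reads. The submitters' processing notes list the mm10 build and, among the tools, TopHat2 2.1.0, SAMtools 0.1.18, Trimmomatic 0.35 and FastQC 0.11.4. The counting tool, its annotation and its strand setting were not given in the sources used here. Unnormalized whole-number read counts per gene symbol were deposited by the authors. The 5 entries for reads in no gene were left out of all totals and tests. Reads in no feature were 6.42% to 16.9% and ambiguous reads 0.857% to 1.21% of a library.

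CPM used TMM factors. Tests ran in R 4.3.3 with edgeR 4.0.16: filterByExpr (minimum count 10) left 13039 genes, and robust quasi-likelihood fits had a mean for each of 8 groups over all libraries. The test was checked on simulated counts with 1 dispersion (0.116) for every gene and no pairing or outlying libraries. That check does not cover such features of these data. Values per kilobase divide CPM by the length of merged exons (GENCODE M21, GRCm38), matched by symbol. Upstream windows are from RefSeq (GRCm38.p6). By the correlation of their deviations, same-numbered libraries were paired in SS macrophages with moDC (0.119 to 0.203 over 4 pairs) and with cDC2 (0.109 to 0.160), a hint from the data and not from the labels, and in no MI comparison with SS. Alternatives were DESeq2 1.42.0, upper-quartile factors, no filter, fits of only the groups compared, a replicate block, a covariate for mural and endothelial genes, each library left out, and SS libraries numbered 1 and 4 or 2 and 3 alone. The last pair was chosen after seeing the data for the comparisons of SS cell types and the F test. No 2 replicates agreed within sampling noise (lowest chi-square per degree of freedom 10.8).

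The members and lists were chosen with earlier results of these data known. Named genes were all 10 members, Tlr5 and Tlr6, up to 3 changed genes per list and MI comparison with the smallest adjusted p, and the 3 genes most correlated with each member, leaving out predicted genes, pseudogenes, immune receptor segments, Y-linked genes and Xist. Unc93b1, Xcr1 and the markers beside results were named after their values were seen. One withheld marker is not reported here. Of 175 list symbols, 173 were found.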

Additional observations from a re-analysis of the deposited data

Results flagged for a closer look

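Of 68 groups of 4 libraries in which a member's values varied, 4 held a library far from the other 3, where chance gives about 1 in 20. Tlr11 was 2.48 CPM in MI macrophage replicate 3, against 0.948 to 1.19 CPM in the others. Tlr7 was 0.836 CPM in MI cDC1 replicate 3 and 0 in the others. Tlr8 was 48.0 CPM in SS moDC replicate 2, against 61.4 to 63.5 CPM. Tlr9 was 6.54 CPM in MI moDC replicate 2, against 10.5 to 10.9 CPM.

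The effect of MI differed among the 4 cell types by edgeR's F test for Tlr2 (adjusted p = 0.000174), Tlr8 (adjusted p = 0.00022), Tlr11 (adjusted p = 0.00183) and Tlr12 (adjusted p = 0.00699). Tlr2 fell in cDC1, Tlr8 rose in macrophages and fell in cDC2, and Tlr11 and Tlr12 fell in the 3 types other than cDC1. The Tlr12 difference did not pass with SS libraries numbered 1 and 4 alone (adjusted p = 0.078) or 2 and 3 alone (0.11), and the Tlr11 difference not with 1 and 4 alone (0.0812).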

How the results depend on the processing

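Of 2648 alternative fits of single members, 2565 kept their side of the threshold, 57 lost a call, 26 gained one and 0 reversed a called direction. Direction was compared only where at least 1 of the 2 fits made a call, and the F test has none. With SS libraries numbered 1 and 4 alone, the count of members changed went from 5 to 3 in macrophages, from 3 to 1 in SS moDC against macrophages, from 6 to 2 in SS cDC2 against moDC and from 4 to 2 in the F test. With numbers 2 and 3 alone, it went from 2 to 0 for MI in moDC, from 3 to 1 in SS moDC against macrophages and from 6 to 3 in SS cDC2 against moDC. SS libraries 1 and 4 had 11.6% to 16.9% of reads in no feature, and 2 and 3 had 6.42% to 9.26%. With the mural and endothelial covariate, the count was 1 of 10 in moDC and 0 of 10 in cDC1, and the calls over all genes went from 631 to 150 and from 1158 to 25. Fitting only the groups compared gave 5 members in SS moDC against macrophages. The cause of these shifts was not tested. Pairwise differences between MI effects were fitted once, over all libraries with TMM factors, and in none of these alternatives.

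Leaving out 1 library at a time gave 4 to 5 members changed by MI in macrophages, 2 in moDC, 4 in cDC2, 2 to 3 in cDC1 and 4 to 6 in the F test. Between types it gave, in SS, 2 to 3 for moDC against macrophages, 7 for cDC2 against macrophages, 5 to 7 for cDC2 against moDC and 7 to 9 for cDC1. In MI these were 4 to 6, 6 to 8, 5 to 6 and 8 to 10. Over all genes, the MI count went from 1440 to 882 or 923 in cDC2 without MI cDC2 replicate 1 or 2, and from 631 to 407 in moDC without SS moDC replicate 2. It went from 1682 to 728 (SS 1 and 4 alone) or 1053 (2 and 3) in SS moDC against macrophages, and from 2008 to 1182, 896 or 1202 (only the groups compared) in SS cDC2 against moDC. In MI cDC2 against moDC it went from 1323 to 2188 (only the groups compared) or 792 (without MI cDC2 replicate 2), and in the F test from 887 to 583 (SS 1 and 4 alone).

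Deviations of same-numbered libraries correlated over 0.1 in 14 of 24 pairs among SS types (median 0.108), in 1 of 21 among MI types (median 0.0283) and in 0 of the SS-MI pairs of a type. With the replicate block, the MI counts were 5, 2, 4 and 3 in macrophages, moDC, cDC2 and cDC1 and the F test count 6, with Tlr1 (adjusted p = 0.0292) and Tlr4 (0.046) added. It also added Tlr3 in SS moDC against macrophages (0.0368) and in MI cDC2 against moDC (0.0385), and no member lost a call in any comparison. Depth limits Tlr7 in cDC1, with 28 reads in 8 libraries.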
